A study of Mus musculus with 21 samples.

Results

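The transcriptome of D5-LSKCD201+ cells was compared with that of the mouse embryonic stem cells (mESC) at the origin of the differentiation culture. All 3 D5-LSKCD201+ libraries and all 3 mESC libraries were used, 6 of the 21 libraries of the series, and every gene listed for them was considered. The mESC were labelled as of 129/ola background, although the study's methods name ESC of C57BL/6 origin beside them. They were grown on inactivated mouse embryonic fibroblasts with leukemia inhibitory factor, and were sorted with an antibody against SSEA-1, a carbohydrate antigen of mouse pluripotent cells. The D5-LSKCD201+ cells carried the same background label. They were made from embryoid bodies in a 3D self-assembling peptide gel, whose hematopoietic-like colonies were moved onto mitomycin C-treated OP9 stromal cells with SCF, IL-3 and Flt3 ligand for 5 days. LSK stands for lineage-negative, Sca-1-positive and c-kit-positive, the gate that holds the blood stem and progenitor cells of mouse bone marrow. CD201, the endothelial protein C receptor, marks a subset of them enriched for stem cells. The groups differed at once in differentiation, medium, supporting cells and sorting antibodies, so these cannot be told apart in the values below.

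Mouse embryonic stem cells keep themselves undifferentiated through a small circuit of transcription factors. In the embryo, the first blood stem cells arise from hemogenic endothelium, vessel lining cells that turn on blood transcription factors while they still carry endothelial genes, and that later lose the endothelial program as they bud off as blood cells. Gene lists that follow this sequence were therefore read one after the other: pluripotency, epithelium, endothelium, blood, matrix, and then chromatin, cell cycle and metabolism.

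The comparison touched a large part of the transcriptome. Expression is given as FPKM, in which the fragments of a gene are scaled to its transcript length and to the size of the library. The table listed 27968 genes. Those averaging 0.5 FPKM or more across both groups, 13441 genes, were tested with limma on log2(FPKM + 1). A gene was called higher or lower where its Benjamini-Hochberg adjusted p lay under 0.05 and its log2 fold change was 1 or more in size. By this rule 5056 genes were called (37.6%), of which 2626 were higher (19.5%) and 2430 were lower (18.1%) in D5-LSKCD201+, the shares against which the counts of each list are to be read. A gene near 0 in one group reached the level for testing only through the other and had to differ, so counts and medians over the members tested are descriptions of those members. The replicates of each group lay so close together, with a lowest Pearson r across genes of 0.99646 within mESC and 0.99575 within D5-LSKCD201+ against 0.771 to 0.775 between groups, that in 11578 genes (86.1%) every value of one group exceeded every value of the other. Of the genes called, 5 had overlapping groups, and none of these is named below. Genes are therefore ordered by the size of the change. Changes of at least 3 on the log2 scale were seen for 489 higher and 249 lower genes, and changes of at least 5 for 114 higher and 45 lower genes. A further view, on levels alone, counted 219 genes with at least 5 FPKM in every D5-LSKCD201+ library and under 0.5 FPKM in every mESC library, and 193 genes with the opposite pattern.

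**Figure D1:**
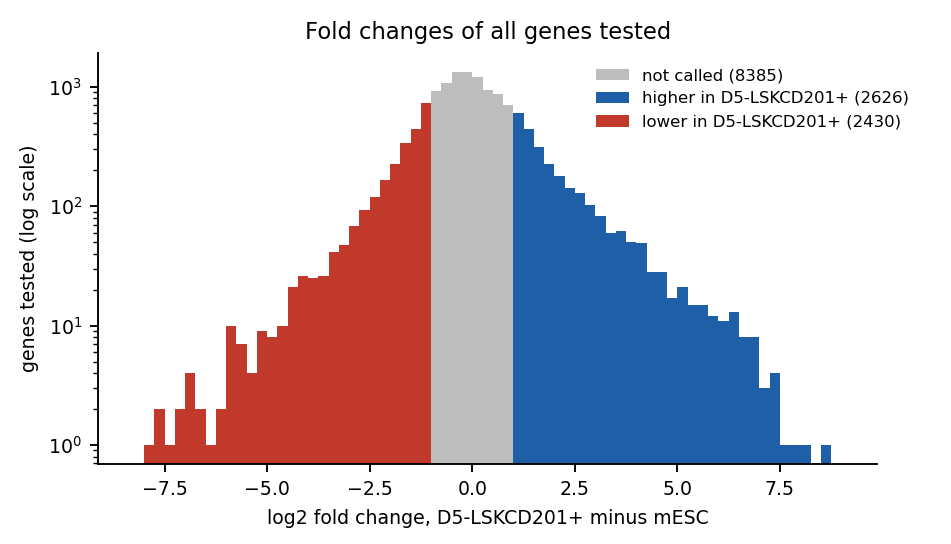
Number of genes tested (log scale) by log2 fold change, D5-LSKCD201+ minus mESC, in bins of 0.25. Grey bars are the 8385 genes not called, blue bars the 2626 called higher and red bars the 2430 called lower, and the right tail is the heavier one beyond 5.

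The libraries were alike in their totals. Summed FPKM ran from 508622 to 530631, and between 11311 and 11379 genes reached 1 FPKM in each library. Genes of the mitochondrial genome made up 1.91% to 2.28% of the summed FPKM, and cytosolic ribosomal proteins 7.89% to 8.41% in mESC and 6.60% to 7.21% in D5-LSKCD201+. Of 8 housekeeping genes 6 were not called, among them Ppia at 5013 ± 121 FPKM in mESC and 3896 ± 262 FPKM in D5-LSKCD201+ (SD, n = 3, as for all values below) and Gapdh at 628 ± 9.37 FPKM in mESC and 509 ± 12.9 FPKM in D5-LSKCD201+, and the list's median log2 fold change was -0.07, as that of all genes tested. The other 2 of that list were higher in D5-LSKCD201+, among them Actb, from 1209.6 to 3082 FPKM. Depth is unknown here, since FPKM do not keep it, and a log2 fold change on the log2(FPKM + 1) scale understates the change of a gene with low values. The study names the replicates biological, but the labels do not say whether they came from separate cultures, so p-values measure the spread between these samples.

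The genes behind the sort were read first, as a check of the labels and not as a result, since the cells were gated on their products. Kit, which encodes c-kit, was at 6.78 ± 0.87 FPKM in mESC and 44.5 ± 2.94 FPKM in D5-LSKCD201+. Ly6a, which encodes Sca-1, was at 1.6 ± 0.294 FPKM in mESC and 61.3 ± 3.37 FPKM in D5-LSKCD201+, and Procr, which encodes CD201, at 2.4 ± 0.233 FPKM in mESC and 59.7 ± 2.03 FPKM in D5-LSKCD201+. In the 3 libraries of each group, Procr read 2.67, 2.31 and 2.23 FPKM in the mESC libraries and 59.2, 61.9 and 57.9 FPKM in the D5-LSKCD201+ libraries, so the groups were far apart. The lineage genes Cd3e, Itgam and Ly6g were at or under 0.39 FPKM on average in both groups. SSEA-1 is a sugar and not a gene product. Of the fucosyltransferases that can build it, Fut9 was at 2.58 FPKM in mESC and 0.00766 FPKM in D5-LSKCD201+, and Fut4 at 0.19 and 0.432 FPKM.

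D5-LSKCD201+ cells had little of the pluripotency program left. Of 35 core and naive pluripotency genes, 33 were lower and none was higher, against 18.1% lower over all genes, with a median log2 fold change of -5.30. Of the 35, 12 were under 0.5 FPKM in every D5-LSKCD201+ library, so these were tested only through mESC and had to differ. The steepest fall in the whole comparison was that of Dppa5a, an RNA-binding protein of pluripotent cells, which read 5022, 4848 and 4534 FPKM in the mESC libraries and 15.02, 22.2 and 20.2 FPKM in the D5-LSKCD201+ libraries (log2 fold change -7.91, SE 0.12, adjusted p = 4.73e-11). It was the most abundant of these genes in mESC, and its remainder in D5-LSKCD201+ was above that of any other gene among the 10 steepest falls. Pou5f1, the POU factor OCT4 at the centre of the circuit, read 424, 429 and 426 FPKM in the mESC libraries and 2.67, 1.77 and 2.58 FPKM in the D5-LSKCD201+ libraries (log2 fold change -7.01, SE 0.10, adjusted p = 3.26e-11). The libraries of each group kept well apart for both genes.

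The other 8 of the 10 steepest falls had various roles. Tdgf1, the Nodal coreceptor Cripto, fell by 7.58 on the log2 scale, from 621 to 2.25 FPKM, although a processed copy with a near-identical sequence makes its counting uncertain. The Nodal antagonists Lefty1 and Lefty2 fell by 7.12 and 6.76 on the same scale. Utf1, a chromatin-bound factor, went from 548 to 1.99 FPKM, Zfp42, known as Rex1, from 605 to 2.82 FPKM, and the orphan nuclear receptor Nr0b1 from 163 to 0.321 FPKM. Nanog, Sox2 and Esrrb, named here after their values were seen, ended at 0.425, 0.172 and 0.0887 FPKM. Chchd10, a mitochondrial protein, and Tdh, the threonine dehydrogenase of mouse ESC, were also among them and fell by 6.89 and 6.97 on it.

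A few members were still expressed. Tbx3, a T-box factor that is also used in mesoderm, was at 6.25 ± 0.972 FPKM in mESC and 5.75 ± 0.864 FPKM in D5-LSKCD201+ and was not called. Klf2 and Klf4, Krüppel-like factors that serve in blood vessels as well as in ESC, both fell, from 143 to 52.3 FPKM and from 11.2 to 2.09 FPKM, so that Klf2 kept the highest level of the list in D5-LSKCD201+. In all, 4 genes of the list stayed at 5 FPKM or more in every D5-LSKCD201+ library, against 33 in every mESC library. Summed over the list, the libraries held 9205 to 9802 FPKM in mESC and 129.6 to 144 FPKM in D5-LSKCD201+. In bulk samples, fewer cells that express a gene and less RNA in each of them cannot be told apart.

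Promoters of 3 genes that fell and of 3 that rose among the leading genes are shown, because these genes stand at the head of the lists on each side of the comparison. Each is the 150 bases that end just before the RefSeq start site (build GRCm38.p6), 5′ to 3′ on the strand of the gene, and GC boxes (GGGCGG) and CCAAT boxes (CCAAT) on either strand are in capitals. Pou5f1 (chr17:35505882-35506031, plus strand), Zfp42 (chr8:43307010-43307159, minus strand) and Utf1 (chr7:139943706-139943855, plus strand) fell.
Pou5f1: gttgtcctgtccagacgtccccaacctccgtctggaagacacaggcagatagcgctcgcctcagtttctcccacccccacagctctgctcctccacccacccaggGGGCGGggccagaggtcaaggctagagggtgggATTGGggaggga
Zfp42: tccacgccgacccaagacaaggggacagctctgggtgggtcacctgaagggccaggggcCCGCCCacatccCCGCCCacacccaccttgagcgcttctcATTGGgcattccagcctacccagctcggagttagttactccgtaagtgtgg
Utf1: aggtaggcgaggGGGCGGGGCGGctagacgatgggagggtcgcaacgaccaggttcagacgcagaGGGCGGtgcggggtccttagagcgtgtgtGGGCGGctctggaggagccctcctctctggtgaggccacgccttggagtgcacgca
Kdr (chr5:75978456-75978605, minus strand), Tie1 (chr4:118489850-118489999, minus strand) and Emcn (chr3:137340928-137341077, plus strand), genes of the endothelial program described below, rose.
Kdr: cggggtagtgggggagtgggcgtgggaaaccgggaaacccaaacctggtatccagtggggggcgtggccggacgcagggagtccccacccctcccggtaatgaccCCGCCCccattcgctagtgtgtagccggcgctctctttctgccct
Tie1: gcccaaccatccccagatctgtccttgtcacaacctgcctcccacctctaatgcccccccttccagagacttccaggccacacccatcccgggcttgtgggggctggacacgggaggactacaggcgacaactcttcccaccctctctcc
Emcn: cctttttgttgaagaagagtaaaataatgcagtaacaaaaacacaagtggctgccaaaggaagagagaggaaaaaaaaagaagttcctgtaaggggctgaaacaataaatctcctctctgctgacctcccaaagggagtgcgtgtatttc
Of the 6 windows 4 held a GC box, which 28.6% of all 32851 promoter windows of this length hold, and 2 held a CCAAT box, which 24.5% hold. Tie1 and Emcn held none of the 6 motifs searched. The RefSeq start of Tie1 lay 212 bases from the start of the gene as listed with the values, so its window may miss that promoter. For the others shown the distance was 67 bases or less. The POU octamer ATGCAAAT (0.998% of all windows), the ETS sites CGGAAGT (4.04%) and AGGAAGT (5.07%) and the GATA site AGATAA (5.65%) were in none of the 6, which says only that these letters are not in this window. Of the 150 bases, Utf1 had 13 CpG, Kdr 11, Zfp42 7, Pou5f1 5, Tie1 3 and Emcn 1. A promoter was found for 72.4% of the genes tested, and promoter composition was not compared between genes higher and lower.

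Neighbouring programs of the early embryo and germ line were low as well. Of 16 germline and two-cell-like genes tested, of 25 listed, 14 were lower and none higher, with a median of -2.45. Sycp3, a protein of meiotic chromosomes, went from 39.2 to 0.781 FPKM (log2 fold change -4.50, SE 0.08, adjusted p = 1.02e-10), and Tdrd12, of the piRNA pathway, from 19.7 to 0.147 FPKM. The Zscan4 genes mark a small, shifting fraction of ESC, and Zscan4f went from 20.1 to 0.0273 FPKM, although its near-identical copies make the split of reads uncertain. Rhox5, an X-linked homeobox gene, had the highest level of the list and was still at 10.7 FPKM in D5-LSKCD201+.

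The primed epiblast and primitive streak list moved less as a whole: 5 of 11 tested were lower and 2 higher, with a median of -0.29. Those lower were headed by Sp5, a Wnt target, from 10.7 to 0.284 FPKM, Pou3f1 from 4.32 to 0.042 FPKM, Otx2, a head organizer gene, from 9.85 to 1.47 FPKM, and the de novo DNA methyltransferase Dnmt3b from 68.1 to 14.99 FPKM. Among 7 neural genes tested 5 were lower and 1 higher. Pax6, an eye and forebrain factor, went from 12.5 to 0.093 FPKM and Neurod1 from 6.998 to 0.0249 FPKM, while Stmn2, a tubulin-binding protein, fell from 77.01 FPKM and kept 17.7 FPKM.

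Epithelial genes of mESC were lower too. ESC colonies are held together by E-cadherin, and Cdh1, its gene, read 55.3, 58.1 and 60.7 FPKM in the mESC libraries and 0.878, 0.882 and 0.518 FPKM in the D5-LSKCD201+ libraries (log2 fold change -5.07, SE 0.09, adjusted p = 1.61e-10). Epcam, a cell adhesion molecule of epithelia, went from 73.7 to 1.38 FPKM, and the membrane protease inhibitors Spint1 and Spint2 from 26.6 to 0.701 FPKM and from 103 to 14.1 FPKM. Of 20 epithelial genes tested, 13 were lower and 2 higher, with a median of -1.35. The keratin genes Krt8 and Krt18 were not called. Krt8 was at 6.95 ± 0.443 FPKM in mESC and 11.6 ± 0.995 FPKM in D5-LSKCD201+, and Krt18 at 5.24 ± 0.779 FPKM in mESC and 6.03 ± 0.832 FPKM in D5-LSKCD201+. The junction protein gene Jup was not called either, at 37.8 ± 0.755 FPKM in mESC and 67.4 ± 3.17 FPKM in D5-LSKCD201+.

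**Figure D2:**
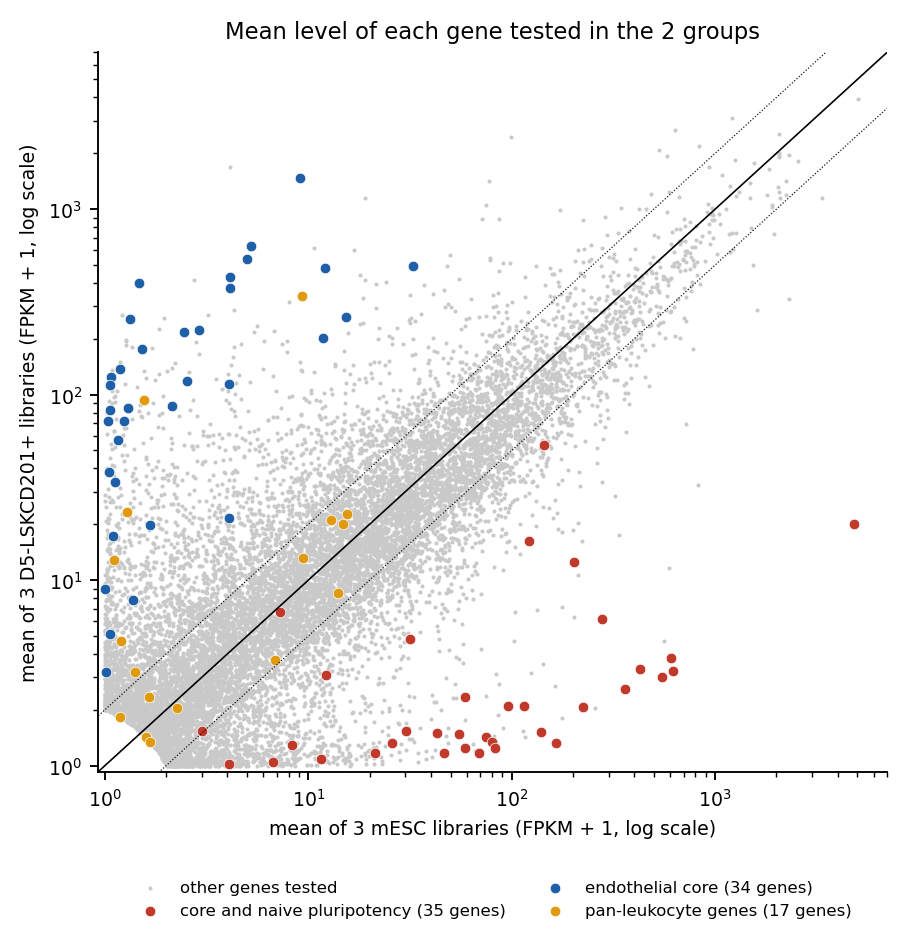
Mean level of each of the 13441 genes tested in 3 mESC libraries (x axis) and 3 D5-LSKCD201+ libraries (y axis), both as FPKM + 1 on a log scale. The solid line marks equal levels and the dotted lines a ratio of 2 in either direction. The pluripotency genes in red lie along the bottom right, the endothelial genes in blue along the top left, and most pan-leukocyte genes in orange near the solid line or at low levels.

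In place of the ESC program stood that of blood vessels. Each of the 34 endothelial core genes was higher in D5-LSKCD201+, against 19.5% of all genes, and their median log2 fold change was 5.74 against -0.07 over all genes tested. Of the 34, 16 were under 0.5 FPKM in every mESC library, so these were tested only through D5-LSKCD201+ and had to differ. The list summed to 103 to 109 FPKM in mESC and 7295 to 7415 FPKM in D5-LSKCD201+. Icam2, an adhesion molecule of endothelium, read 0.6, 0.462 and 0.374 FPKM in the mESC libraries and 406, 388 and 407 FPKM in the D5-LSKCD201+ libraries (log2 fold change 8.09, SE 0.06, adjusted p = 3.89e-12). Tie1, a receptor tyrosine kinase of vessels, read 0.408, 0.278 and 0.281 FPKM in the mESC libraries and 254, 261 and 245 FPKM in the D5-LSKCD201+ libraries (log2 fold change 7.59, SE 0.06, adjusted p = 3.89e-12), and was among the genes under 0.5 FPKM in every mESC library. Plvap, which builds the diaphragms of fenestrae and caveolae, had the highest level of the list at 8.15 ± 0.533 FPKM in mESC and 1462 ± 11.8 FPKM in D5-LSKCD201+, with no overlap between the groups. Kdr, the VEGF receptor that marks blood and vessel precursors, and Cdh5, the junction protein VE-cadherin, went from 0.182 to 137 FPKM and from 0.0383 to 70.8 FPKM. Pecam1, which ESC also express, went from 14.3 to 260.03 FPKM, and Ramp2, the partner of the adrenomedullin receptor, from 4.26 to 629.6 FPKM. Outside the list, Rhoj, a small GTPase of endothelium, was among the 10 largest rises of all, from 0.274 to 197 FPKM (log2 fold change 7.28, SE 0.05, adjusted p = 3.89e-12). Gimap4, a GTPase of the immune system, went from 0.269 to 193 FPKM, Asb4, an ankyrin repeat protein, from 0.272 to 185 FPKM, and Gng11, a G protein subunit, from 0.951 to 257 FPKM, and these too were among the 10 largest.

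**Figure D3:**
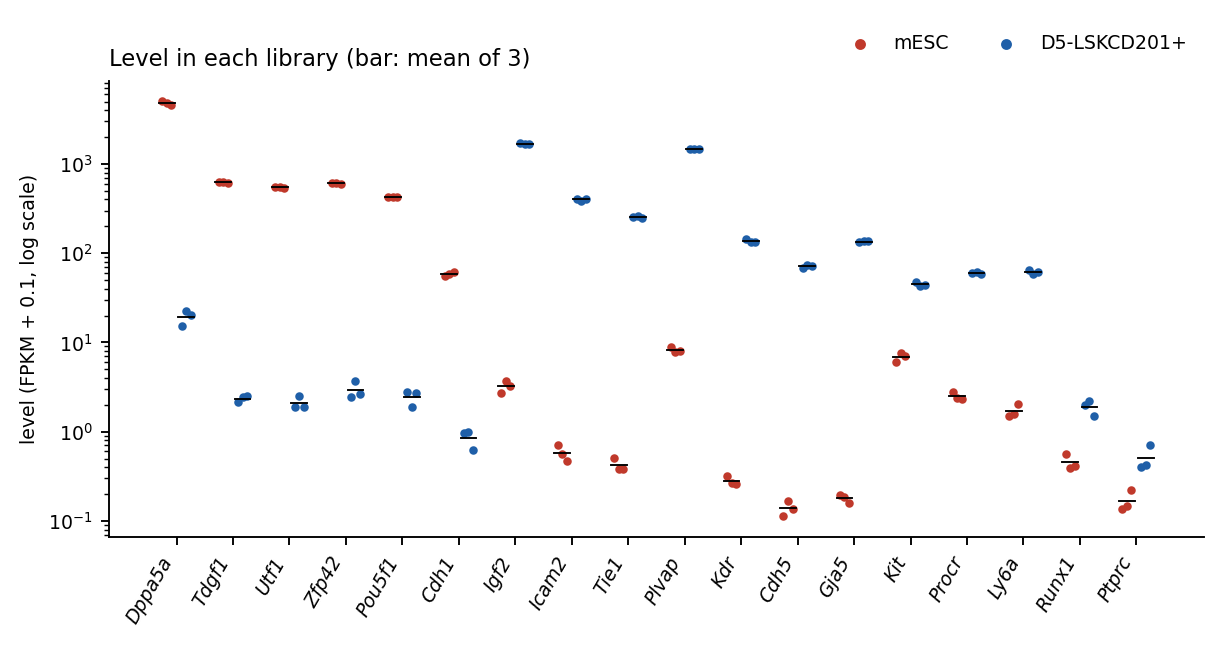
Level of 18 genes in each library, as FPKM + 0.1 on a log scale, with mESC in red, D5-LSKCD201+ in blue and a bar at the mean of 3. Dppa5a to Cdh1 are higher in all mESC libraries, Igf2 to Ly6a in all D5-LSKCD201+ libraries, and Runx1 and Ptprc stay low in both groups.

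The transcription factors known to build this program were present too. Of 24 endothelial and hemogenic transcription factors tested, 22 were higher, with a median of 3.71. The SoxF factors stood at the front. Sox17, needed for arteries and hemogenic endothelium, read 0.677, 0.487 and 0.633 FPKM in the mESC libraries and 128, 115 and 121 FPKM in the D5-LSKCD201+ libraries (log2 fold change 6.26, SE 0.07, adjusted p = 1.03e-11). Sox7 went from 0.263 to 70.1 FPKM, and Sox18, with the highest level of the list, from 4.58 to 233 FPKM. The ETS factors Ets1 and Fli1 went from 0.267 to 64.7 FPKM and from 0.145 to 55.9 FPKM. Klf2 was the member that fell, and Foxo1, at 4.16 ± 0.28 FPKM in mESC and 7.17 ± 0.0603 FPKM in D5-LSKCD201+, was not called.

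Arterial genes were prominent. Of 18, 14 were higher and none lower, with a median of 2.56. Gja5 and Gja4 encode the connexins of arterial endothelium. Gja5 read 0.0973, 0.0869 and 0.0599 FPKM in the mESC libraries and 132, 136 and 136 FPKM in the D5-LSKCD201+ libraries (log2 fold change 6.97, SE 0.05, adjusted p = 3.89e-12), and Gja4 went from 0.431 to 109 FPKM. Nrp1, a VEGF and semaphorin coreceptor, went from 0.122 to 90.3 FPKM, and Igfbp3, a binding protein of insulin-like growth factors with the highest level of this list, from 9.65 to 617 FPKM. Genes of veins and lymphatic vessels rose beside them, 8 of 9 tested with 1 lower (Pdpn, podoplanin of lymphatic vessels, from 8.61 to 1.64 FPKM), so the arterial list did not stand alone. Emcn, an endothelial sialomucin, went from 0.0672 to 124 FPKM, the apelin receptor Aplnr from 0.0623 to 111 FPKM, and Nrp2 and Flt4, receptors of lymphatic growth factors, from 1.21 to 19.6 FPKM and from 0.671 to 18.9 FPKM.

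Signaling genes that go with arteries and hemogenic endothelium were then read by role. Among Notch ligands, Dll4, the ligand of arterial endothelium, read 0.0161, 0.0565 and 0.0143 FPKM in the mESC libraries and 39.9, 38.8 and 39.1 FPKM in the D5-LSKCD201+ libraries (log2 fold change 5.29, SE 0.06, adjusted p = 1.79e-11). Of the receptors, Notch1 and Notch4, named after their values were seen, were higher, from 1.3 to 10.6 FPKM and from 1.69 to 19.4 FPKM. Among targets, Nrarp went from 3.02 to 104 FPKM and Hey1, a transcriptional repressor, from 1.18 to 33.97 FPKM. Hes1, another target, was at 62.6 ± 5.56 FPKM in mESC and 100.04 ± 6.23 FPKM in D5-LSKCD201+ and was not called. Mfng, a glycosyltransferase that tunes Notch receptors, went from 7.35 to 97.2 FPKM, and Rfng, of the same family, was not called at 14.8 ± 1.61 FPKM in mESC and 9.02 ± 0.214 FPKM in D5-LSKCD201+. In all, 12 of 24 Notch pathway genes tested were higher, 2 lower and 10 not called, with a median of 1.12.

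Receptors led the changes among VEGF, BMP and TGF-beta genes, of which 19 of 31 tested were higher and 3 lower, with a median of 2.0. Beside Kdr and Nrp1, the VEGF receptor Flt1 went from 0.237 to 71.1 FPKM, and Acvrl1, the BMP9 receptor of endothelium, from 0.228 to 59.3 FPKM. Id3, a target of BMP signals, had the highest level at 17.6 ± 1.74 FPKM in mESC and 329.5 ± 5.82 FPKM in D5-LSKCD201+. The ligand gene Bmp4 was not called, at 13.8 ± 0.713 FPKM in mESC and 10.1 ± 0.573 FPKM in D5-LSKCD201+. Vegfb, another ligand gene, was not called at 6.17 ± 0.236 FPKM in mESC and 6.94 ± 1.11 FPKM in D5-LSKCD201+, nor were Smad1 and Smad5, which carry BMP signals to the nucleus.

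**Figure D4:**
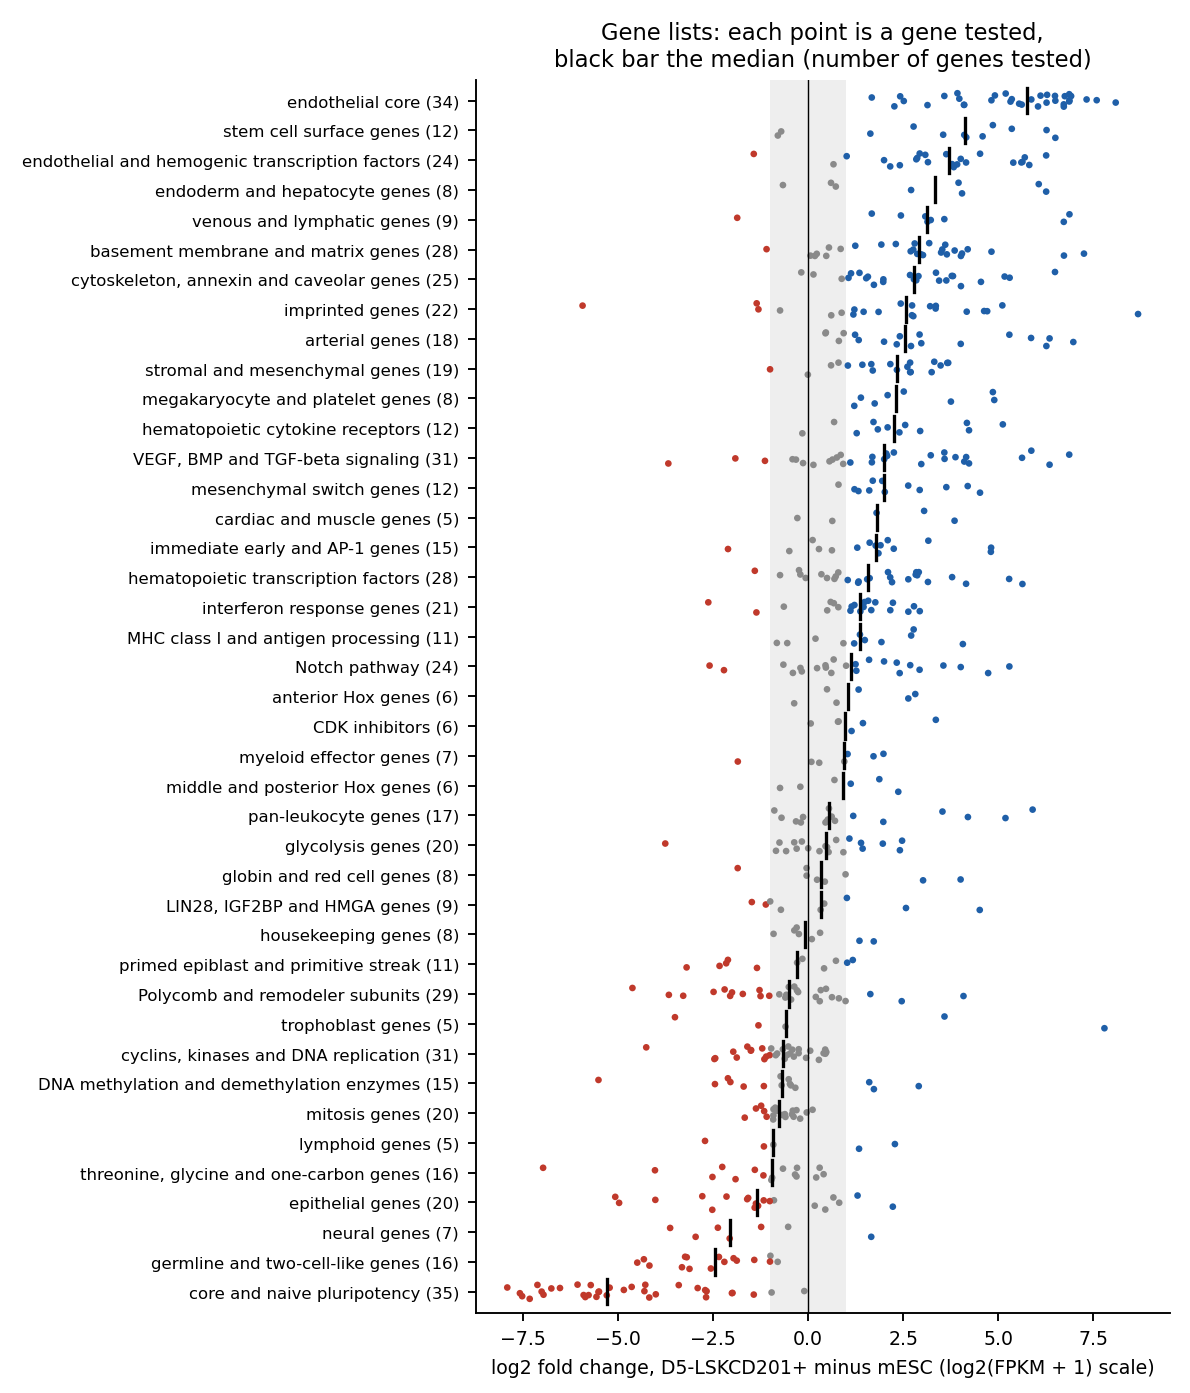
Log2 fold change (D5-LSKCD201+ minus mESC, log2(FPKM + 1) scale) of each gene tested in the lists with 5 or more genes tested. Blue points were called higher, red points lower and grey points neither, the grey band spans -1 to 1, and the black bars are medians, from -5.30 for core and naive pluripotency to 5.74 for endothelial core.

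Blood transcription factors were raised in part. Of 28 tested, of 34 listed, 18 were higher, 1 was lower and 9 were not called, with a median of 1.58. Fli1 led, followed by Lyl1, a partner of LMO2, which read 0.219, 0.216 and 0.189 FPKM in the mESC libraries and 43.6, 46.6 and 48.2 FPKM in the D5-LSKCD201+ libraries (log2 fold change 5.29, SE 0.07, adjusted p = 2.12e-11). Mecom and Erg, regulators of stem cells that endothelium also uses, went from 0.335 to 22.8 FPKM and from 0.0384 to 13.4 FPKM, and Hhex, with the highest level, from 8.43 to 66.7 FPKM. Gata2, which hemogenic endothelium and stem cells need, went from 1.5 to 21.02 FPKM. Ldb1, which bridges the proteins of the LMO2 complex, was present in both groups and not called, at 13.5 ± 0.61 FPKM in mESC and 17.5 ± 2.34 FPKM in D5-LSKCD201+.

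Further factors are named here after their values were seen. Runx1, without which no blood stem cell leaves the endothelium, read 0.46, 0.29 and 0.314 FPKM in the mESC libraries and 1.89, 2.09 and 1.41 FPKM in the D5-LSKCD201+ libraries with no overlap, and passed the threshold narrowly (log2 fold change 1.04, SE 0.11, adjusted p = 1.69e-05). Without the second D5-LSKCD201+ library its log2 fold change was 0.96, under the threshold. Gfi1 and Gfi1b, the repressors through which RUNX1 shuts down endothelial genes, were at 0.938 and 0.663 FPKM in D5-LSKCD201+. Myb, a factor of definitive blood progenitors, was lower, from 2.84 to 0.448 FPKM, and Spi1, the myeloid and lymphoid factor PU.1, higher, from 0.967 to 12.96 FPKM.

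Receptors for blood growth factors were higher in part of their list. Of 18 hematopoietic cytokine receptors 12 were tested, of which 10 were higher, against 19.5% of all genes, and none lower. In every mESC library 10 of the 18 were under 0.5 FPKM, so some were tested only through their level in D5-LSKCD201+. Il2rg, the common gamma chain of interleukin receptors, had the highest level and read 2.02, 1.82 and 1.33 FPKM in the mESC libraries and 93.9, 92.9 and 92.4 FPKM in the D5-LSKCD201+ libraries (log2 fold change 5.12, SE 0.09, adjusted p = 1.23e-10). Csf2rb, the beta chain that serves IL-3, went from 0.0267 to 17.5 FPKM, with a close paralog that can share its reads, and its partner Il3ra, named after its values were seen, from 0.961 to 5.45 FPKM. Of the receptors for the cytokines in the medium, Flt3 was the exception, at 0.237 FPKM in mESC and 0.16 FPKM in D5-LSKCD201+. Lifr and Il6st, which form the receptor of leukemia inhibitory factor, were not called. Lifr was at 7.46 ± 0.487 FPKM in mESC and 6.61 ± 0.614 FPKM in D5-LSKCD201+, and Il6st at 6.08 ± 0.607 FPKM in mESC and 10.3 ± 0.254 FPKM in D5-LSKCD201+.

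Stem cell surface genes rose in 10 of 12 tested, of 15 listed, with a median of 4.13. Several of them are endothelial genes as well: Esam went from 3.13 to 373 FPKM, Cd34 from 1.91 to 223 FPKM and Tek, the angiopoietin receptor, from 1.13 to 86.1 FPKM. Itga2b, the integrin CD41 of early blood cells and platelets, read 0.649, 0.75 and 0.402 FPKM in the mESC libraries and 45.6, 45.4 and 44.4 FPKM in the D5-LSKCD201+ libraries (log2 fold change 4.86, SE 0.09, adjusted p = 1.48e-10). Cd9 and Itga6, which ESC also express, were not called. Cd9 was at 214 ± 2.48 FPKM in mESC and 123 ± 5.73 FPKM in D5-LSKCD201+, and Itga6 at 34.2 ± 1.76 FPKM in mESC and 20.5 ± 0.525 FPKM in D5-LSKCD201+.

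Genes shared by white blood cells rose in part. Of 24 pan-leukocyte genes 17 were tested, 6 were higher (35.3%, against 19.5% of all genes), none was lower and 11 were not called, with a median of 0.55. The list summed to 79.9 to 84.3 FPKM in mESC and 557 to 563 FPKM in D5-LSKCD201+. Ptprc, which encodes CD45, the defining surface protein of blood cells, read 0.036, 0.0453 and 0.123 FPKM in the mESC libraries and 0.305, 0.321 and 0.602 FPKM in the D5-LSKCD201+ libraries and was below the level for testing. Spn, which encodes CD43, was at 0.0867 FPKM in D5-LSKCD201+. Members that rose were Lcp1, an actin bundler, from 0.56 to 92.2 FPKM, Arhgdib, a regulator of small GTPases, from 8.31 to 338 FPKM, the tetraspanin Cd53 from 0.279 to 22.4 FPKM and the adaptor Hcls1 from 0.106 to 11.8 FPKM. Coro1a, Laptm5, Ptpn6 and Inpp5d, present in mESC at 8.41, 13.7, 14.5 and 11.9 FPKM, were at 12.2, 19.2, 21.7 and 20.02 FPKM in D5-LSKCD201+ and were not called. Fyb, not called either, moved the other way, from 12.96 to 7.53 FPKM. Of the 17 tested, 12 were higher and 3 lower in D5-LSKCD201+ with no overlap between the groups. Over all genes tested 86.1% did not overlap, so this count does not set the list apart. In every D5-LSKCD201+ library 6 of the 24 genes were under 0.5 FPKM.

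Genes of mature blood lineages were mostly low. Of 14 megakaryocyte and platelet genes 12 were under 0.5 FPKM in every mESC library and 6 in every D5-LSKCD201+ library, so the 8 tested were mostly those that D5-LSKCD201+ expressed. Clec1b, a platelet receptor, went from 0.0394 to 29.9 FPKM, and F2r, the thrombin receptor that endothelium shares, from 16.9 to 240.04 FPKM. Of 8 globin and red cell genes tested 2 were higher and 1 lower. The embryonic globins Hbb-bh1 and Hba-x went from 0.0232 to 15.9 FPKM and from 0 to 7.7 FPKM. The adult globins, whose copies are near-identical, were not called: Hbb-bs was at 9.68 ± 2.12 FPKM in mESC and 9.28 ± 1.16 FPKM in D5-LSKCD201+. Tfrc, the transferrin receptor, was lower, from 41.9 to 10.8 FPKM. Of 18 myeloid effector genes 7 were tested, 1 was lower, Cd68 of macrophage lysosomes from 10.4 to 2.16 FPKM, and 3 were higher, all at low levels: Mpo at 4.13 FPKM, Tyrobp at 3.41 FPKM and Fcer1g, an Fc receptor chain, at 1.71 FPKM. The call of Fcer1g was lost without the second or the third D5-LSKCD201+ library. Of 12 lymphoid genes 5 were tested, with 2 higher and 2 lower. Of 9 mast cell genes 2 were tested, Kit and Gata2, both higher and both shared with stem cells.

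Extracellular matrix and cell shape genes made up another large block. Of 28 basement membrane and matrix genes, 21 were higher and 1 lower, with a median of 2.92. Col4a1 and Col4a2, collagen IV chains transcribed from neighbouring starts, rose together, Col4a1 from 1.73 to 412 FPKM (log2 fold change 7.25, SE 0.11, adjusted p = 5.28e-11) and Col4a2 from 0.697 to 178 FPKM. Sparc, a matrix glycoprotein, reached the highest level of the list, from 76.3 to 1414 FPKM, and the laminin chain Lama4 of vessels went from 0.165 to 31.9 FPKM. Nid2, Lamb2 and Lamc1, which ESC deposit too, were not called, Nid2 at 59.6 ± 1.54 FPKM in mESC and 62.2 ± 2.1 FPKM in D5-LSKCD201+. Among cytoskeleton, annexin and caveolar genes 22 of 25 tested were higher and none lower, with Cav1, the coat protein of caveolae, from 1.46 to 218 FPKM, Anxa5 from 7.02 to 314 FPKM and Anxa2 from 15.7 to 599 FPKM. Of 12 further mesenchymal genes, many of which endothelium shares, 11 were higher, such as the intermediate filament gene Vim, from 70.5 to 885 FPKM, and S100a4, from 4.97 to 136 FPKM.

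Markers of other cells that the culture held were read beside these results. D5-LSKCD201+ cells were taken from an OP9 coculture, and of 24 stromal and mesenchymal genes 15 of 19 tested were higher and 1 was lower, with a median of 2.33. Summed over that list, levels were 21.3 to 26.97 FPKM in mESC and 209 to 215 FPKM in D5-LSKCD201+. Col1a2, of collagen I, went from 1.73 to 29.5 FPKM, Col3a1 from 0.9 to 17.8 FPKM, Fbn1 from 0.17 to 13.8 FPKM and Pparg, the regulator of fat cells, from 0.13 to 13.5 FPKM, while Acta2, with the highest level, went from 6.04 to 39.4 FPKM. None of the 24 genes was under 0.5 FPKM in every D5-LSKCD201+ library, and 12 were so in every library of mESC, which had grown on fibroblasts. The gate for lineage-negative, Sca-1-positive, c-kit-positive and CD201-positive cells is meant to leave such cells out, and their part in the matrix and mesenchymal results was not tested.

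Endoderm and mesoderm markers were read in the same way. Of 17 endoderm and hepatocyte genes 5 of 8 tested were higher, headed by Sox17, Dab2, an endocytic adaptor that vessels also use, from 1.2 to 146 FPKM, and the GATA factors Gata4 and Gata6 of heart and endoderm, from 1.21 to 35.5 FPKM and from 0.364 to 19.98 FPKM, while 7 of the list were under 0.5 FPKM in every D5-LSKCD201+ library. Hand2 and Isl1, factors of heart progenitors, went from 0.0369 to 13.9 FPKM and from 0.717 to 13.1 FPKM, with 3 of 5 cardiac and muscle genes tested higher. Plac1, an X-linked gene known from placenta, was the third largest rise of all, and read 0.379, 0 and 0.28 FPKM in the mESC libraries and 269.6, 262 and 269 FPKM in the D5-LSKCD201+ libraries (log2 fold change 7.79, SE 0.11, adjusted p = 3.26e-11). The 5 trophoblast genes tested moved both ways, with 2 higher and 2 lower: Gata3 was higher, from 0.254 to 14.01 FPKM, and Tfap2c and Ascl2 were lower, from 13.2 to 0.247 FPKM and from 2.25 to 0.31 FPKM.

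Imprinted growth genes held the largest rise. Igf2, a fetal growth factor expressed from the paternal allele (chr7:142650766-142670356, GRCm38), read 2.58, 3.62 and 3.17 FPKM in the mESC libraries and 1699, 1654 and 1674 FPKM in the D5-LSKCD201+ libraries (log2 fold change 8.68, SE 0.08, adjusted p = 5.6e-12). Mest, with the highest level of the list, went from 98.6 to 2458 FPKM, Dlk1, a surface protein of fetal tissues, from 2.51 to 119.7 FPKM, Peg3 from 3.43 to 115 FPKM, and H19, the noncoding neighbour of Igf2, from 0.578 to 9.71 FPKM. Of 22 imprinted genes tested 16 were higher and 3 lower, with a median of 2.58, and the list summed to 606 to 632 FPKM in mESC and 5698 to 5723 FPKM in D5-LSKCD201+. Phlda2, a growth inhibitor of placenta, went the other way, from 162 to 1.69 FPKM (log2 fold change -5.93, SE 0.11, adjusted p = 1.72e-10). Meg3 was not called, at 61.1 ± 15.7 FPKM in mESC and 91.4 ± 5.94 FPKM in D5-LSKCD201+.

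Chromatin regulators changed in both directions. Dnmt3l, the cofactor of de novo DNA methylation, read 86.4, 85.5 and 82.7 FPKM in the mESC libraries and 1.02, 0.798 and 0.813 FPKM in the D5-LSKCD201+ libraries (log2 fold change -5.52, SE 0.06, adjusted p = 1.37e-11), and Tet1, which oxidises methylcytosine, went from 16.5 to 2.19 FPKM. The maintenance pair Dnmt1 and Uhrf1 was not called. Dnmt1 was at 53.7 ± 1.06 FPKM in mESC and 38.2 ± 1.3 FPKM in D5-LSKCD201+, and Uhrf1 at 106 ± 3.25 FPKM in mESC and 76.9 ± 4.5 FPKM in D5-LSKCD201+. Gadd45g, a stress gene on the same list, was higher, from 14.4 to 114 FPKM. Of 15 genes of DNA methylation 6 were lower and 3 higher.

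Polycomb subunits showed a similar split, with 11 of 29 Polycomb and remodeler genes lower, 3 higher and 15 not called. Phc1, a subunit of Polycomb complex 1, went from 175 to 6.16 FPKM, Cbx7, its chromodomain reader in ESC, from 23.8 to 0.982 FPKM, and Jarid2 and Eed, of Polycomb complex 2, from 176 to 17.1 FPKM and from 213 to 37.05 FPKM. Suz12, of the same complex and named after its values were seen, was lower by a narrow margin, from 6.99 to 2.94 FPKM, and its call was lost without the second mESC library or the first D5-LSKCD201+ library. Smarca2, the ATPase paralog of SMARCA4, was higher, from 0.903 to 31.2 FPKM, whereas Smarca4 was not called at 39.1 ± 1.6 FPKM in mESC and 32.4 ± 1.15 FPKM in D5-LSKCD201+. Of the fetal growth regulators, the RNA-binding gene Lin28a fell from 15.1 to 4.76 FPKM and Hmga1 from 316 to 145 FPKM, and Hmga2, a chromatin protein of fetal cells, rose from 0.602 to 35.6 FPKM, within a list of 9 genes tested with 3 higher and 2 lower. Igf2bp1 was not called at 49.9 ± 4.49 FPKM in mESC and 29.9 ± 0.803 FPKM in D5-LSKCD201+, nor was Igf2bp3 at 39.8 ± 1.98 FPKM in mESC and 50.2 ± 2.64 FPKM in D5-LSKCD201+.

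Of the cyclin, replication and mitosis genes none was called higher. Of 31 cyclins, kinases and replication genes 12 were lower (38.7%, against 18.1% of all genes), with a median of -0.67. Of 20 mitosis genes 5 were lower, with a median of -0.76, and this share, 25%, was nearer that of all genes. Ccne1, the cyclin that shortens the first gap phase of ESC, read 338, 324 and 339.6 FPKM in the mESC libraries and 15.98, 17.7 and 15.8 FPKM in the D5-LSKCD201+ libraries (log2 fold change -4.26, SE 0.05, adjusted p = 1.11e-11). Cdk6 went from 14.3 to 1.79 FPKM, the origin recognition gene Orc1 from 56.2 to 13.6 FPKM, and the mitotic genes Ccnb1 and Cdc20 from 356 to 111 FPKM and from 451 to 173 FPKM. Cdk1, Cdk2 and Cdk4 were not called, at 201.3, 84.7 and 462 FPKM in D5-LSKCD201+, and neither was Mki67, at 5.79 ± 0.207 FPKM in mESC and 6.36 ± 0.271 FPKM in D5-LSKCD201+. Cdkn1c, the imprinted inhibitor p57, was higher and read 87.2, 81.7 and 86.6 FPKM in the mESC libraries and 883, 878 and 884 FPKM in the D5-LSKCD201+ libraries (log2 fold change 3.36, SE 0.03, adjusted p = 7.47e-12). Of 6 CDK inhibitors tested 3 were higher and none lower, and Cdkn1a, or p21, was not called at 35.5 ± 1.78 FPKM in mESC and 62.6 ± 4.85 FPKM in D5-LSKCD201+.

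Among metabolic genes, those of threonine, glycine and one-carbon metabolism were lower in 7 of 16 (43.8%, against 18.1% of all genes), with a median of -0.96. Tdh, which feeds the one-carbon pool of mouse ESC from threonine, read 256, 261 and 249.6 FPKM in the mESC libraries and 0.77, 1.22 and 1.17 FPKM in the D5-LSKCD201+ libraries (log2 fold change -6.97, SE 0.08, adjusted p = 1.7e-11). Its partner Gcat went from 55.5 to 10.8 FPKM, Gldc, of the glycine cleavage system, from 46.7 to 1.96 FPKM, and Shmt1 from 142 to 23.9 FPKM. No gene of this group was called higher. Shmt2, the mitochondrial form, was not called at 81.8 ± 1.83 FPKM in mESC and 101 ± 1.81 FPKM in D5-LSKCD201+. In glycolysis 6 of 20 genes were higher and 1 lower. The subunits of lactate dehydrogenase moved in opposite directions: Ldhb fell from 219.6 to 15.3 FPKM and Ldha rose from 829 to 2175 FPKM. The lactate exporter Slc16a3 and hexokinase Hk1 were higher, from 51.8 to 279.8 FPKM and from 10.1 to 60.6 FPKM, and Pkm, Aldoa and Pgam1 were not called.

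Antigen presentation and interferon genes, which are kept low in ESC, were higher in most members. Of 11 MHC class I genes tested 7 were higher, with B2m, the invariant light chain, from 22.98 to 401 FPKM, and the heavy chains H2-D1 and H2-K1 from 15.7 to 113 FPKM and from 17.5 to 69.4 FPKM. Of 21 interferon response genes 14 were higher and 2 lower, with a median of 1.37. Usp18 went from 0.406 to 9.71 FPKM and Rsad2 from 0.0763 to 6.42 FPKM, levels that stayed modest, while Ifitm1, which ESC express strongly, was lower, from 151 to 23.6 FPKM. Immediate early genes, which also respond to cell handling, were higher in 10 of 15 and lower in 1 (Jund, from 91.7 to 20.8 FPKM): Jun went from 3.58 to 126 FPKM, Atf3 from 0.595 to 43.7 FPKM and Fos from 3.23 to 36.8 FPKM, whereas Ier2 and Myc were not called. Any part of sorting or dissociation in this group was not tested.

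Hox genes, which record position along the body axis, were mostly low in both groups. Of 10 anterior Hox genes 6 were tested and 3 were higher: Hoxb2 from 0.779 to 11.5 FPKM, Hoxb5 from 0.123 to 5.97 FPKM and Hoxb4 from 0.0472 to 1.63 FPKM. Of 17 middle and posterior genes 6 were tested and 3 were higher, Hoxb7 from 0.605 to 4.76 FPKM, Hoxa13 from 0.00837 to 4.23 FPKM and Hoxb8 from 0.0115 to 1.2 FPKM. No gene of the second list reached 5 FPKM in every D5-LSKCD201+ library.

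Genes that can tell lines apart were read as a check of origin. Ddx3y, on the Y chromosome, was at 4.82 ± 0.237 FPKM in mESC and 4.51 ± 0.52 FPKM in D5-LSKCD201+ and was not called, Uty likewise at 5.23 ± 0.328 FPKM in mESC and 2.88 ± 0.392 FPKM in D5-LSKCD201+, and Eif2s3y was lower, from 66.8 to 23.1 FPKM. Xist, the RNA of the inactive X chromosome, was at 0.026 and 0.00374 FPKM. Hprt, of purine salvage, read 1.84, 1.15 and 1.66 FPKM in the mESC libraries and 5.66, 6.09 and 5.86 FPKM in the D5-LSKCD201+ libraries and was called higher, but both groups lay far under the 243 FPKM of FL-LSKCD201+ and the 164 FPKM of BM-LSKCD201+, cells of C57BL/6 origin in the same table.

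The most abundant transcripts differed in part. Of the 10 highest genes in mESC, Ppia and Dppa5a stood first, at 5013 and 4801 FPKM, and Hsp90aa1, a cytosolic chaperone, fell from 2299 to 325 FPKM. Among the 10 highest in D5-LSKCD201+ were Actb, the actin-binding proteins Pfn1, from 631 to 2678 FPKM, and Tmsb4x, from 528 to 2076 FPKM, Ldha and Mest. Rpl13, of the ribosome, was among the 10 highest in both groups and was not called, at 2299 ± 179 FPKM in mESC and 1949 ± 102 FPKM in D5-LSKCD201+. So was mt-Atp6, of the mitochondrial genome, whose near-identical nuclear copy makes its counting uncertain, at 2068 ± 164 FPKM in mESC and 1997 ± 114 FPKM in D5-LSKCD201+.

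The other sorted groups, deposited by the authors as FPKM too, are given as levels for the leading genes, with no test. These were D5-LSKCD201- cells from the same kind of coculture, and LSKCD201+ cells of fetal liver and of adult bone marrow, 3 libraries each. The fetal liver and bone marrow cells came from C57BL/6 mice. For pluripotency genes the median level was 6.23 in mESC, 5.37 in D5-LSKCD201-, 0.63 in D5-LSKCD201+, 0.22 in FL-LSKCD201+ and 0.18 in BM-LSKCD201+, on the log2(FPKM + 1) scale. The endothelial core list had its highest median in D5-LSKCD201+, at 6.86, against 2.71 in D5-LSKCD201-, 3.34 in FL-LSKCD201+ and 1.87 in BM-LSKCD201+. For pan-leukocyte genes mESC had a median of 0.66, D5-LSKCD201- of 1.23 and D5-LSKCD201+ of 1.46, while the fetal liver and bone marrow cells had 5.71 and 6.47.

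**Figure D5:**
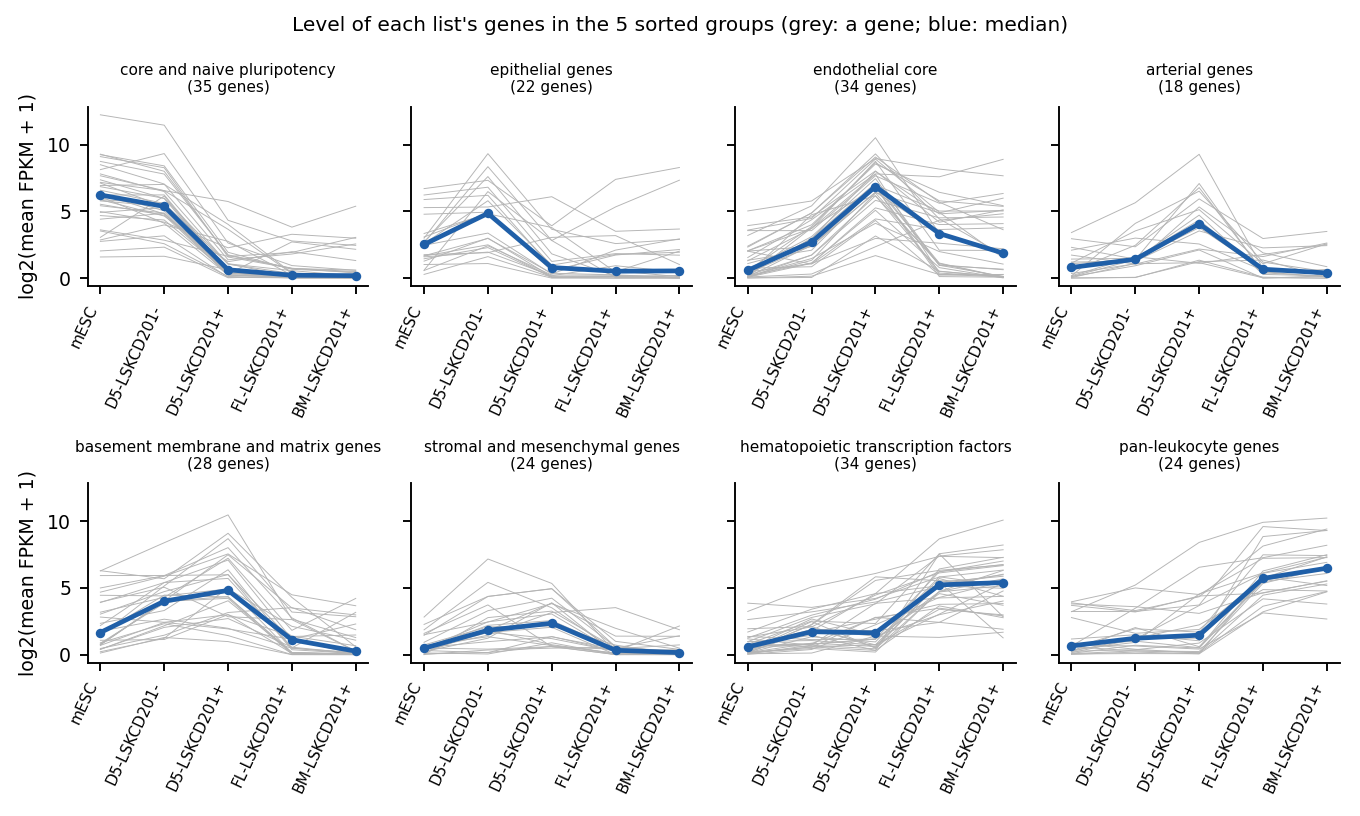
Level of the genes of 8 lists in the 5 sorted groups, as log2(mean FPKM + 1) over 3 libraries. Each grey line is a gene and the blue line the median of the list, and the groups on the x axis have no order in time. In D5-LSKCD201+ the endothelial, arterial and matrix medians are at their highest, and the pan-leukocyte median, at 1.46, is below those of the cells from fetal liver and bone marrow, at 5.71 and 6.47.

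Levels of single genes are given beside the medians. Icam2 was at 13.5 FPKM in D5-LSKCD201-, 54.3 FPKM in FL-LSKCD201+ and 40.4 FPKM in BM-LSKCD201+, below its level in D5-LSKCD201+. Gja5 was at 1.61, 0.317 and 0.0951 FPKM in these groups. Runx1 was at 5.39, 42.2 and 57.5 FPKM, and Ptprc at 0.633, 43.5 and 66.8 FPKM, so both were far higher in the fetal liver and bone marrow cells. Lyl1 and Gata2 reached 78.7 and 68.7 FPKM in FL-LSKCD201+ and 104 and 101 FPKM in BM-LSKCD201+. Dppa5a was still at 2804 ± 208 FPKM in D5-LSKCD201- and at 5.88 and 4.47 FPKM in the cells from mice. By these markers the D5-LSKCD201+ libraries met their gate in Kit, Ly6a and Procr, while CD45, the defining gene of blood cells, was at 0.409 FPKM. CD45 is 1 member of its list, and the others did not all stay low. Of the 17 pan-leukocyte genes tested, 6 were higher, headed by Lcp1 at 92.2 FPKM, none was lower and 11 were not called.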

How the data were processed

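Poly(A) RNA of sorted cells was sequenced on the Illumina platform from TRIzol extracts. Values were deposited by the authors as FPKM per gene and library. The submitters' processing notes name HISAT2 2.0.5, StringTie 1.3.3 and Cuffdiff 1.3.0. The notes list GRCm38 beside another build. Of the gene identifiers 99.5% were in GENCODE M21 of GRCm38, and gene positions are given on that build, 1-based. FPKM are scaled for transcript length and library size, so counts and depth are not recoverable here, and low values did not fall on steps of whole reads. The coculture table of the series was not used.

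Sample labels gave the groups. A pseudocount of 1 was added before log2, and genes averaging 0.5 FPKM or more entered a two-sided limma test (limma 3.58.1 with its trend setting, R 4.3.3), with Benjamini-Hochberg adjustment over 13441 genes. An exact permutation test of 3 against 3 libraries cannot give a two-sided p under 0.1. The 44 gene lists were read by counts and medians, with no set test. The genes named were drawn from the 10 largest changes in each direction, in each list up to 4 called members with the largest change, the most abundant member and members of at least 5 FPKM that were not called, the sort and line identity genes, and the 10 most abundant genes of each group. Ptprc, Spn, Runx1, Gfi1, Gfi1b, Myb, Spi1, Flt3, Il3ra, Notch1, Notch4, Cdh5, Pecam1, H19, Nanog, Sox2, Esrrb, Klf2, Klf4, Pdpn, Jund, Suz12 and the genes of the closing section other than Gimap4, Hsp90aa1 and Fcer1g fall outside this rule and were chosen after their values were seen. The members and lists were chosen with earlier results of these data known. Replicate numbers did not pair the samples. Promoters came from RefSeq (GRCm38.p6). The code was tested on simulated data. Some genes of the lists are not reported here by name. Alternatives were a pseudocount of 0.1, other filters, quantile normalization, no trend, one fit over all 5 sorted groups, a replicate block, the adjusted p alone and leaving out each library. Plots were made in Python 3.11.15 (matplotlib 3.10.9).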

Additional observations from a re-analysis of the deposited data

How the results depend on the processing

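The counts of genes higher and lower stayed within 1.5 times the reported ones under every alternative run except the adjusted p alone, which gave 5418 higher and 6078 lower. With a pseudocount of 0.1, 3187 genes were higher and 3035 lower. Quantile normalization gave 2499 and 2611, moving the share of calls that were higher from 51.9% to 48.9%. Leaving out each library in turn gave 2587 to 2636 higher and 2385 to 2453 lower, and no called gene reversed in any alternative. Over all genes, the median log2 fold change, -0.0746 as reported, was -0.0936 with a pseudocount of 0.1, -0.0121 with no filter, -0.125 with quantile normalization and from -0.0941 to -0.0419 when a library was left out. The medians of the globin, housekeeping, lymphoid and trophoblast lists changed sign in some alternative, and those of the other lists did not. Of the 44 list medians, 36 moved by more than the spread between replicates with a pseudocount of 0.1, 24 with no filter, 17 with a filter at 1 FPKM, 8 with quantile normalization and 2 to 5 when a library was left out. Among genes named, Runx1, Suz12 and Fcer1g dropped under the fold threshold when 1 library was left out: Runx1 to 0.96 without D5-LSKCD201+ replicate 2, Suz12 to -0.99 without mESC replicate 2 and to -0.95 without D5-LSKCD201+ replicate 1, and Fcer1g to 0.99 and 0.93 without D5-LSKCD201+ replicates 2 and 3. Hoxb4 and Hoxb8, called higher above, were no longer tested with the filter at 1 FPKM. Of 356 genes followed, 6 gained a call with a pseudocount of 0.1 and 4 with quantile normalization.

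With the replicate number as a block, 2624 genes were higher and 2430 lower. Deviations of same-numbered samples from their group means correlated at -0.034, -0.090 and -0.076, and no sample correlated best with its own number, so the numbers were not read as pairs. Low FPKM carry no measure of precision beyond the SD of 3 libraries.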

Other observations

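Gene families outside the lists, picked after their values were seen, showed further blocks. Their counts and medians only describe the families picked. The Gimap genes, small GTPases of lymphocytes that lie side by side on mouse chromosome 6, number 8 in the table, of which 6 reached the level for testing, most of them through D5-LSKCD201+ alone. Gimap3 and Gimap7 were near 0 in both groups. Gimap4 went from 0.269 to 193 FPKM, Gimap6 from 0.842 to 128 FPKM and Gimap1, whose locus overlaps that of Gimap5 in the table, from 0.482 to 87.4 FPKM. In FL-LSKCD201+ and BM-LSKCD201+ Gimap6 was at 483 and 489 FPKM and Gimap4 at 14.6 and 10.9 FPKM. In D5-LSKCD201- they were at 5.43 and 5.26 FPKM.

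Other families held many lower members. Of 27 Platr transcripts, long noncoding RNAs named for pluripotency, 13 reached the level for testing, nearly all through mESC alone, and Platr17 and Platr10 had the highest levels, from 33.6 to 0.175 FPKM and from 27.1 to 0.0766 FPKM. Nucleoporins of the Nup series were lower in 11 of 19 tested and higher in none, with a median of -1.06, against 18.1% lower over all genes. Genes named Nop, Utp, Nol and Rrp, many of them of ribosome biogenesis, were grouped by symbol alone. They were lower in 20 of 33 tested and higher in 1, with a median of -1.11. The member that was higher was Nol4l, from 0.504 to 11.2 FPKM. Of 24 heat shock genes tested 11 were lower and 4 higher, against 18.1% lower and 19.5% higher over all genes. Hsp90aa1 and Hspb1 went from 2299 to 325 FPKM and from 594 to 10.6 FPKM, and Hspd1, Hspe1 and Hspa9 from 667 to 199.8 FPKM, from 636 to 206 FPKM and from 327 to 118 FPKM, all lower, while Hspa5, Hsp90b1, Hspa12b and Hspb11 were higher, from 419 to 999 FPKM, from 333 to 739 FPKM, from 0.216 to 20.3 FPKM and from 5.36 to 26.5 FPKM.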
